A study of Arabidopsis thaliana with 3 samples.

Results

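The 7 genes described here, nad1, nad4, nad9, cox1, ccb382, ccb452 and orfX, lie in the mitochondrial genome of Arabidopsis thaliana. They were taken by name from the probe-to-gene table of the array, 7 of 13356 named genes. The table named 16 mitochondrial genes with a probe set of their own, and these 7 are the ones whose intensity passed a floor of 109 units on at least 1 array, so the members were chosen by their measured intensity. Expression was measured on Affymetrix arrays in whole seedlings aged 2 weeks, raised on half-strength MS medium at 22 °C under 16 h light and 8 h dark. Wild type, seedlings of a transgenic plant overexpressing DRB2 (the DRB2 overexpressor, DRB2-OX) and seedlings of a DRB3 overexpressor (DRB3-OX) had 1 array apiece, 3 in all. The products of DRB genes bind double-stranded RNA. The labels name no promoter for the transgenes, no number of lines and no pooling of plants, and the design text of the series is about a kinase gene and salt. Without replicates no difference has an error, a test or a p-value, and precision is limited by the number of arrays.

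Plant mitochondria keep a small genome that encodes core subunits of the respiratory chain, while most subunits are encoded in the nucleus and imported. The products of nad1 and nad4 sit in the membrane arm of complex I, the NADH dehydrogenase that starts the chain, and that of nad9 in its matrix arm. cox1 encodes the catalytic core of complex IV, cytochrome c oxidase. ccb382 (now ccmFN1) and ccb452 (now ccmFC) encode parts of the machinery that attaches haem to cytochrome c, the electron carrier that feeds complex IV. orfX (now mttB) encodes a TatC-like protein of a membrane translocase. Plant mitochondrial RNAs are spliced and edited by nuclear-encoded factors. In these organelles a poly(A) tail marks RNA for decay, and the usual Affymetrix labelling primes on poly(A), so such arrays read the tailed or internally primed part of these RNAs.

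Intensities are MAS5 signals on a linear scale, scaled by the authors to the same mean on each array. Values under the floor were raised to it before ratios were computed, which makes a fold with 1 side under the floor a lower bound. A gene is counted as higher or lower where its floored intensities were at least 2-fold apart. None of the 7 genes passed 2-fold in any of the 3 comparisons. Over all 13356 named genes 0.951% passed in DRB2-OX against wild type, 2.97% in DRB3-OX against wild type and 1.19% between the overexpressors. On the side of lower values these shares were 0.412%, 1.53% and 0.614%. Here and below, shares of calls are over all 13356 named genes. Of these, 5710, 5817 and 5733 were not above the floor on either array of the comparison and could not be called. The 7 members were chosen for passing the floor, and the shares among genes that could be called are larger than those given. At 1.5-fold, 1 member was lower in DRB2-OX than in wild type (nad4), where 2.92% of all genes were, 2 were lower in DRB3-OX than in wild type (nad1 and ccb452), where 5.59% were, and 0 were lower in DRB3-OX than in DRB2-OX, where 3.82% were. The balance of higher and lower calls over all genes moved with the scaling: 72 genes were higher and 55 lower in DRB2-OX than in wild type, against 55 and 74 with each array centred on its median, and 77 higher and 82 lower in DRB3-OX than in DRB2-OX, against 90 and 61. The comparisons share arrays and are not independent.

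The arrays differed in their controls. The 25S ribosomal RNA control read 12982 in wild type, 3603 in DRB2-OX and 11339 in DRB3-OX, and 27 poly(A) spike-in probe sets read a median of 4.36-fold and 1.12-fold lower than in wild type. The 18 hybridisation control probe sets all read lower than in wild type on both overexpressor arrays, by medians of 1.37-fold and 1.26-fold, beside median shifts of 1.15-fold and 1.16-fold lower for the 7 mitochondrial genes. In 5 control pairs of probe sets, 3' over 5' signal was below that of wild type on both other arrays in 5 of 5, for example 9.31, 5.77 and 3.89 in a GAPDH pair. GAPDH and ubiquitin had more than 1 pair each, so the pairs are not all of separate transcripts. Of the tissue lists, RCA, for Rubisco activase of green tissue, read 33718, 29895 and 21690, and the root hair gene EXPA18 read 184, 278 and 439, with the other root gene named, EXPA7, at 52.1, 95.1 and 158. Both tissues of a seedling were thus seen, and no seed storage gene was named. These values differed between the same 3 arrays as the genes described next, and their part in those differences was not tested. The probe table named no probe set for DRB2 or DRB3, which leaves the labels unchecked.

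Among the complex I genes, nad4 (probe set 244929_at) read 1386 in wild type, 844 in DRB2-OX and 987 in DRB3-OX. Wild type was highest and DRB2-OX lowest. The nad4 reading was 1.64-fold lower in DRB2-OX (log2 ratio -0.72) and 1.40-fold lower in DRB3-OX (log2 ratio -0.49). Of 1145 named genes outside the mitochondrial genome within 0.5 log2 units of its level, 26 (2.27%) had a log2 ratio as low or lower in DRB2-OX, and 163 (14.2%) in DRB3-OX.

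nad1 (257324_at) read 176 in wild type, 122 in DRB2-OX and 84.0, under the floor, in DRB3-OX. The arrays stood in that order, with a log2 ratio of -0.53 in DRB2-OX, 1.45-fold lower, and a reading at least 1.62-fold lower in DRB3-OX. Among 1796 genes of like level, 5.51% had a log2 ratio as low or lower in DRB2-OX. nad9 (244943_at) read 125.5 in wild type and 125.5 in DRB2-OX, a log2 ratio of 0.00, which was -0.07 with each array centred, -0.11 after quantile normalization and -0.06 after loess. In DRB3-OX it read 55.2, under the floor, which sets the difference at 1.15-fold or more. On the deposited values without a floor, nad9 had a log2 ratio of -1.18 and nad1 of -1.07 in DRB3-OX against wild type, both past 2-fold, so whether they count as lower rests on how weak signals are treated.

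**Figure D1:**
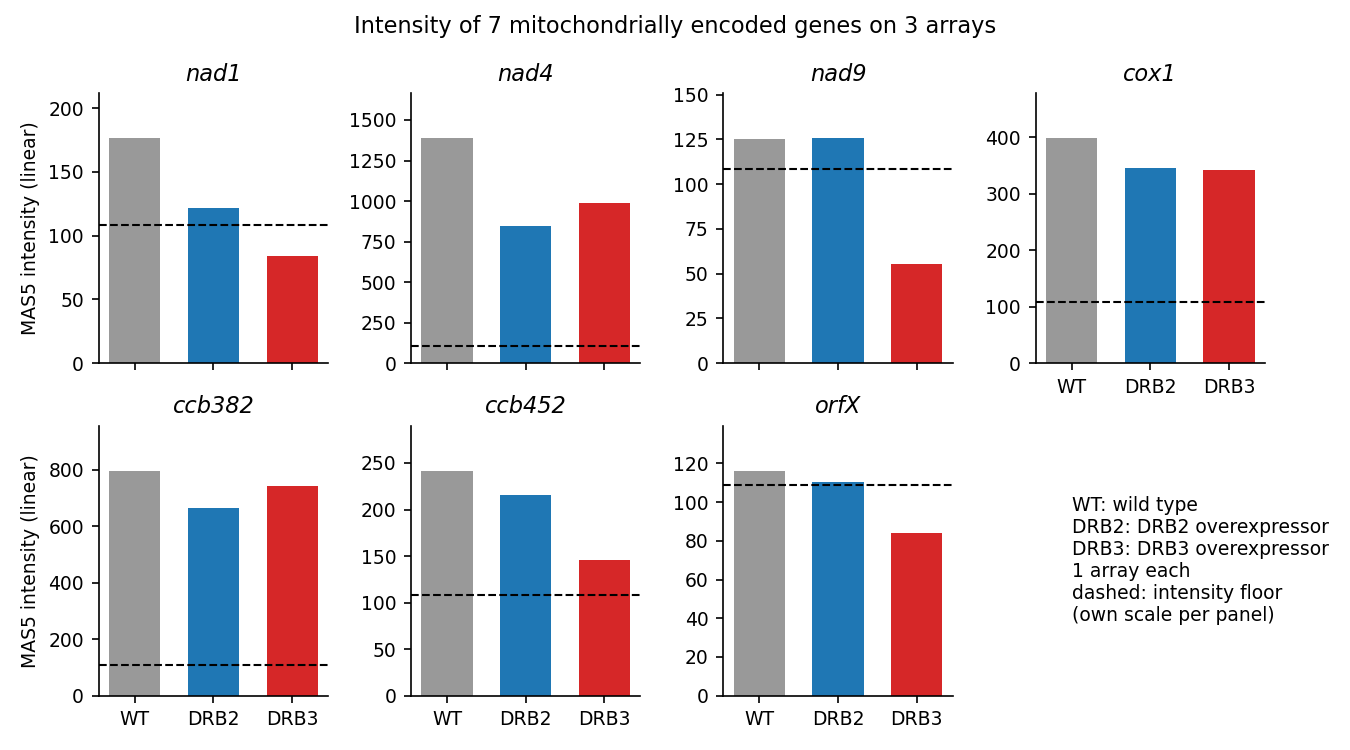
MAS5 intensity (linear, each panel with its own scale from 0) of the 7 genes on the wild-type, DRB2-OX and DRB3-OX arrays, 1 array per bar, with the floor of 109 as a dashed line. Wild type is the highest bar for every gene except nad9, where wild type and DRB2-OX both read 125.5, and nad1, nad9 and orfX drop under the floor in DRB3-OX.

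cox1 (257333_at), for the core of cytochrome c oxidase, read 397 in wild type, 345 in DRB2-OX and 342 in DRB3-OX. Both overexpressors lay a little under wild type, with log2 ratios of -0.20 and -0.22, and the log2 ratio of DRB3-OX to DRB2-OX was -0.01, with its sign turned after centring (0.06) and quantile normalization (0.00). Of 2091 genes of like level, 25.5% and 29.1% had ratios as low or lower in these comparisons, so the cox1 values lay within the spread of other genes.

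The cytochrome c maturation genes had different orders of the arrays. ccb382 (244912_at) read 796 in wild type, 663 in DRB2-OX and 742 in DRB3-OX, with log2 ratios of -0.26 and -0.10. ccb452 (244951_s_at) read 241, 215 and 146 in the same order. Its log2 ratio was -0.17 in DRB2-OX and -0.73 in DRB3-OX, 1.65-fold lower, and 7.61% of 1893 genes of like level were as low or lower there. Thus ccb382 was lowest in DRB2-OX and ccb452 in DRB3-OX, and between the overexpressors their log2 ratios were 0.16 and -0.56.

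orfX (244928_s_at), the translocase gene, read 116 in wild type, 111 in DRB2-OX and 84.0 in DRB3-OX. Its readings lay just above or under the floor, with a log2 ratio of -0.07 in DRB2-OX and of -0.10 or lower in DRB3-OX. The probe sets of orfX and ccb452 are of a class that can bind more than 1 transcript, and their levels are uncertain for that reason.

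Taken over the 7 genes, the median log2 ratio was -0.20 in DRB2-OX against wild type, with 6 genes below 0 and nad9 at 0.00. Over all 7646 named genes above the floor on either of these arrays the median was 0.02, and 47.3% were below 0. In DRB3-OX against wild type the median was -0.22 with 7 of 7 below 0, and 3 of the 7 ratios, those of nad1, nad9 and orfX, were bounds. These 3 passed the floor only in wild type and DRB2-OX, so their place below 0 here, and between the overexpressors, follows from how the members were chosen. On deposited values without a floor the median of the 7 was -0.49. The median over 7539 genes was 0.00 there, and 50.1% were below 0. Between the overexpressors the median was -0.02, or -0.40 on deposited values without a floor, with 5 of 7 below 0 where 52.2% of 7623 genes were, or 3 of 6 after centring or quantile normalization and 4 of 7 after loess. nad4 and ccb382 were the members above 0 in that comparison. RNA of whole seedlings cannot tell fewer cells of a type, or fewer mitochondria, from less RNA per cell.

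**Figure D2:**
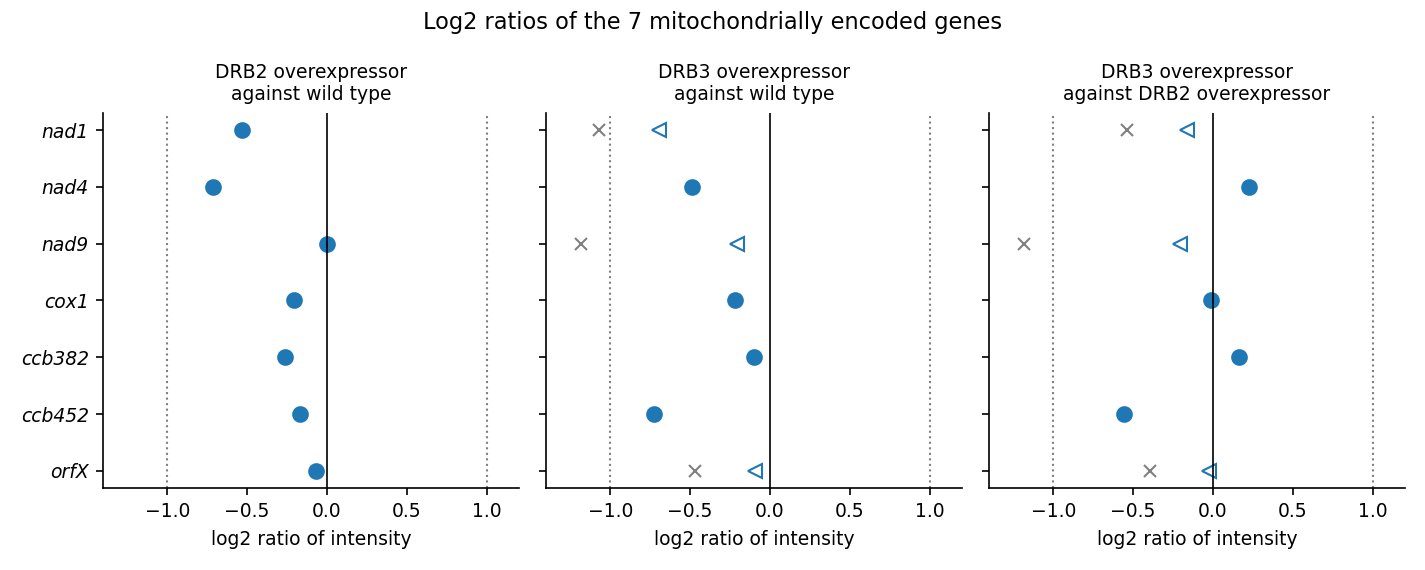
Log2 ratio of floored intensity (x axis) for each of the 7 genes (y axis) in the 3 comparisons; filled circles have both values above the floor, open triangles are bounds, and grey crosses give the same ratio on deposited values without a floor. Dotted lines mark 2-fold: no circle or triangle passes them, while the crosses of nad1 and nad9 do in DRB3-OX against wild type and that of nad9 (-1.19) does in DRB3-OX against DRB2-OX.

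A yardstick for these sizes comes from genes read by several probe sets. Among 26 such genes, nad1 left out, with at least 2 probe sets above the floor on both arrays, the log2 ratios of the probe sets of 1 gene lay a median of 0.38 apart in DRB2-OX against wild type and 0.46 in DRB3-OX against wild type. For 27 genes the value was 0.17 between the overexpressors. Members are set against it here only where both arrays were above the floor, which leaves out nad1, nad9 and orfX in the comparisons with DRB3-OX. The ratios of nad4 and nad1 in DRB2-OX against wild type, of nad4 and ccb452 in DRB3-OX against wild type, and of ccb452 (-0.56) and nad4 (0.23) between the overexpressors were larger than that median. The 90th percentiles of the disagreement were 0.68, 0.93 and 0.56. The ratio of nad4 in DRB2-OX was past the first, that of ccb452 between the overexpressors lay just under the last, and the other measured ratios were smaller. This spread lies within the same arrays and leaves out the difference between plants.

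The probe table gave nad1, whose RNA is joined from separate transcripts by trans-splicing, to 7 probe sets of its own and to 2 more that it shared with a nuclear gene. Of the 7, 2 passed the floor on at least 1 array. Beside 257324_at this was 257325_at, which read 143 in wild type, 113 in DRB2-OX and 86.7 in DRB3-OX, log2 ratios of -0.33 and of -0.39 or lower. Both probe sets above the floor therefore had the same order of arrays. On deposited values 5 of the 7 were lower in DRB2-OX than in wild type and 4 of 7 in DRB3-OX, so the weaker probe sets did not share a direction. For example, 257322_at read 106, 98.4 and 73.7, while 257329_at read 7.05, 42.7 and 8.87. Probe sequences were not checked, so whether each set, 257324_at included, reads nad1 RNA alone is not known.

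**Figure D3:**
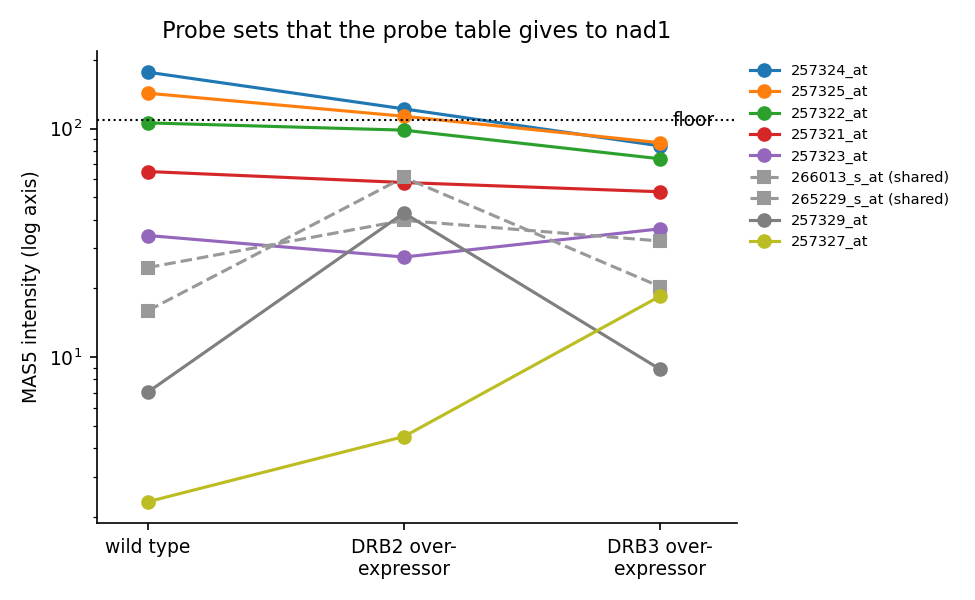
MAS5 intensity (log axis) on the 3 arrays of the 9 probe sets that the probe table gives to nad1, with squares and dashed lines for the 2 shared with a nuclear gene and a dotted line at the floor of 109. The 2 strongest go down from wild type to DRB3-OX, and the probe sets under the floor run in several directions.

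The values on either side of the floor were close. orfX, the lowest member, reached 116, and the highest of the other 9 mitochondrial genes, nad5 and cox2, each reached 90.4. nad5, for a complex I subunit, read 65.5 in wild type, 90.4 in DRB2-OX and 87.7 in DRB3-OX on the set with the higher mean, used for its counts (257338_s_at), of the class that can bind more than 1 transcript, while its other set (257337_at) read 81.0, 82.5 and 32.3, lowest in DRB3-OX. cox2, for a subunit of cytochrome c oxidase, read 90.4, 77.0 and 67.8 in the same order. The complex I genes nad4L (80.7, 52.2 and 39.9), nad6 (38.4, 56.9 and 30.8), nad7 (34.3, 55.6 and 22.4) and nad2 (30.5, 5.25 and 16.0), the cytochrome c maturation genes ccb206 (74.6, 58.2 and 38.8) and ccb203 (31.9, 51.4 and 25.2) and the maturase gene matR (1.78, 2.51 and 1.83) also stayed under the floor on all 3 arrays. Deposited intensities were lower in DRB3-OX than in wild type for 14 of the 16 mitochondrial genes, the exceptions being matR and that set of nad5, where 51.0% of all named genes were. They were lower in DRB2-OX than in wild type for 10 of 16, where 43.5% of all genes were. They were lower in DRB3-OX than in DRB2-OX for 13 of 16, where 57.5% of all genes were, and the exceptions were nad4, ccb382 and nad2. Most of these readings are weak, and values under the floor were not used in any count of calls.

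In the Columbia strain, the source of the reference genome, a large copy of the mitochondrial genome lies in chromosome 2, so mitochondrial RNA and RNA of the copy can be hard to tell apart. The probe table held 11 probe sets shared by a mitochondrial gene and a nuclear gene, and all 11 nuclear genes lie on chromosome 2. They were left out of the gene counts, and the 5 that passed the floor are given here after their values were seen. The set of atp9, for the ring subunit of mitochondrial ATP synthase, and AT2G07671 read 1018 in wild type, 573 in DRB2-OX and 886 in DRB3-OX, log2 ratios of -0.83 and -0.20. The set of atp1, for its alpha subunit, and AT2G07698 read 425, 371 and 255, log2 ratios of -0.20 and -0.74. These pairs were lowest on different arrays, as nad4 and ccb452 were among the members. The set of cob, for cytochrome b of complex III, and AT2G07727 read 146, 114 and 107, while those of the ribosomal protein genes rpl2 with AT2G07715 (80.1, 153 and 89.1) and rpl5 with AT2G07725 (113, 126 and 113) were highest in DRB2-OX. The sets of cob, atp1 and atp9 thus read below wild type on both arrays, cob under the floor in DRB3-OX, and those of rpl2 and rpl5 did not. A set of the mitochondrial ribosomal genes rps3 and rpl16 read 794, 825 and 766. The shared nad1 sets stayed under the floor, with AT2G07701 at 24.7, 39.7 and 32.2 and with AT2G07702 at 16.0, 61.2 and 20.4.

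By the gene order of the RefSeq table (assembly TAIR10.1), ccb452, nad4 and orfX follow each other with 0 protein-coding genes between them, as do nad1 and cox1. For nad1, whose RNA is joined from separate transcripts, this order rests on the listed start alone and need not hold for all its parts. ccb452, orfX, nad1 and cox1 each read highest in wild type and lowest in DRB3-OX. For orfX and nad1, under the floor in DRB3-OX, the lowest place follows from how the members were chosen. For cox1 the overexpressors were close (log2 ratio -0.01), with the sign turned after centring and quantile normalization. nad4 was lowest in DRB2-OX, where its log2 ratio was -0.72 beside -0.17 and -0.07 for its neighbours ccb452 and orfX.

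Plastid-encoded genes are the nearest relatives of these genes in being organelle-encoded. Of 69 named, 65 were above the floor on either array in DRB2-OX against wild type, with a median log2 ratio of -0.33 and a range from -1.47 to 0.15. Of these, 60 were below 0, where 47.3% of all genes were, and 4 were at least 2-fold lower, where 0.412% were. In DRB3-OX against wild type 66 had a median of -0.23, with 46 below 0 (50.1% of all genes were) and 1 at least 2-fold lower (1.53% were). Between the overexpressors 65 had a median of 0.26, with 46 above 0 (47.8% of all genes were). There the mitochondrial genes had 2 of 7 above 0 and a median of -0.02. Of these 7, nad1, nad9 and orfX were bounds, placed below 0 by how the members were chosen. Of the others, nad4 and ccb382 were above 0, and cox1 and ccb452 below. Whether the groups differ could not be tested with 1 array each.

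The plastid ndh genes encode a complex related to complex I, and ndhA, ndhD and ndhJ are the counterparts of nad1, nad4 and nad9. They were picked for this comparison after their values were seen. ndhD read 3651 in wild type, 1694 in DRB2-OX and 2220 in DRB3-OX, the same order of arrays as nad4, and was 2.16-fold lower in DRB2-OX. ndhJ read 2115, 1197 and 1809, log2 ratios of -0.82 and -0.23, where nad9 had 0.00 and -0.21 or lower. ndhA read 8380, 7317 and 8739, log2 ratios of -0.20 and 0.06, where nad1 had -0.53 and -0.70 or lower. The 8 ndh genes above the floor had a median log2 ratio of -0.43 in DRB2-OX, and 9 had a median of -0.23 in DRB3-OX.

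**Figure D4:**
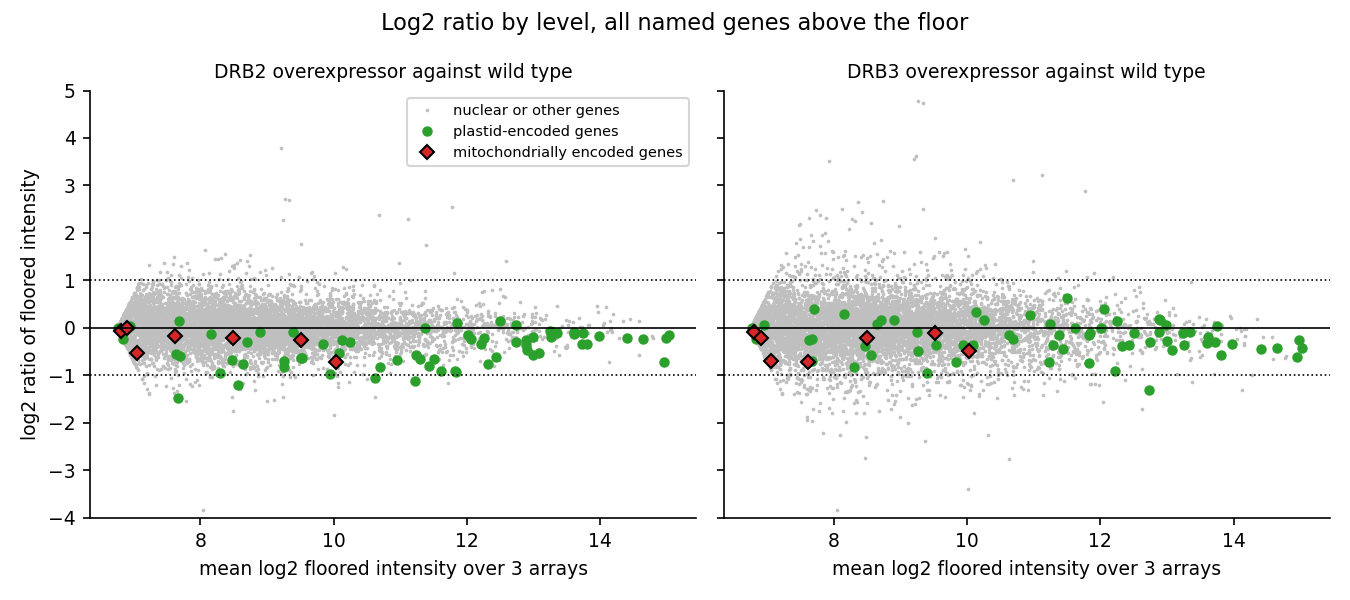
Log2 ratio of floored intensity (y axis) against the mean log2 floored intensity over the 3 arrays (x axis) for named genes that passed the floor on any array, in DRB2-OX (left) and DRB3-OX (right) against wild type, with dotted lines at 2-fold. The mitochondrial genes (red diamonds) lie at or below 0 inside the cloud of other genes (grey), and most plastid genes (green) lie below 0 at higher levels.

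The named nuclear genes of the respiratory chain were mostly above wild type in DRB3-OX. Lists of electron transport, ATP synthase and cytochrome c maturation genes had 23 named members, and none passed 2-fold. The lists were covered in part. Of the identifiers fixed for them, 2 of 9 were named for ATP synthase and 1 of 3 for cytochrome c maturation. For complexes II, III and IV these were 3 of 4, 4 of 7 and 6 of 8, and for the alternative NAD(P)H dehydrogenases 5 of 7. In DRB3-OX against wild type 20 were above the floor on either array, with a median log2 ratio of 0.13 and 17 above 0, where 49.9% of all genes were. Of these, CCMH passed the floor only in DRB3-OX, so its place above 0 follows from the floor. In DRB2-OX 19 were above the floor, with a median of -0.03 and 8 above 0, where 52.7% of all genes were. None of the listed complex I subunits or alternative oxidases was among the named genes, so the nuclear partners of nad1, nad4 and nad9 were not analysed here.

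Of the ATP synthase list both named members had the highest ratios of these lists in DRB3-OX. AT1G51650 read 4054 in wild type, 3210 in DRB2-OX and 6342 in DRB3-OX, and AT5G47030 read 2118, 2434 and 3517, log2 ratios of 0.65 and 0.73 against wild type in DRB3-OX. CYTC-1 and CYTC-2, for cytochrome c, the protein that the ccb genes help to mature, read 8324, 6982 and 10082, and 1328, 1195 and 1970. Both were lowest in DRB2-OX and highest in DRB3-OX, with log2 ratios of 0.28 and 0.57 in the latter. CYTC6A, a plastid relative that the symbol pattern also took, went the other way, with a log2 ratio of -0.62, and AT3G15640 of the complex IV list had 0.24.

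The succinate dehydrogenase genes of complex II, SDH2-1, SDH2-2 and SDH1-1, had log2 ratios of 0.37, 0.33 and 0.16 in DRB3-OX and of 0.15, 0.07 and -0.12 in DRB2-OX. In the complex III list MPPBETA, for a core subunit that also processes imported proteins, had 0.11 in DRB3-OX, and AT1G51980, AT5G40810 and AT3G27240 had 0.34, 0.12 and 0.08. The alternative NAD(P)H dehydrogenases, which bypass complex I, had log2 ratios in DRB3-OX of 0.10 for NDB2, -0.36 for NDB1 and -0.47 for NDC1, which is also found in plastids, and in DRB2-OX of -0.06, 0.27 and -0.18. CCMH, a nuclear partner of the ccb products, read 104, 84.7 and 114, close to the floor.

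**Figure D5:**
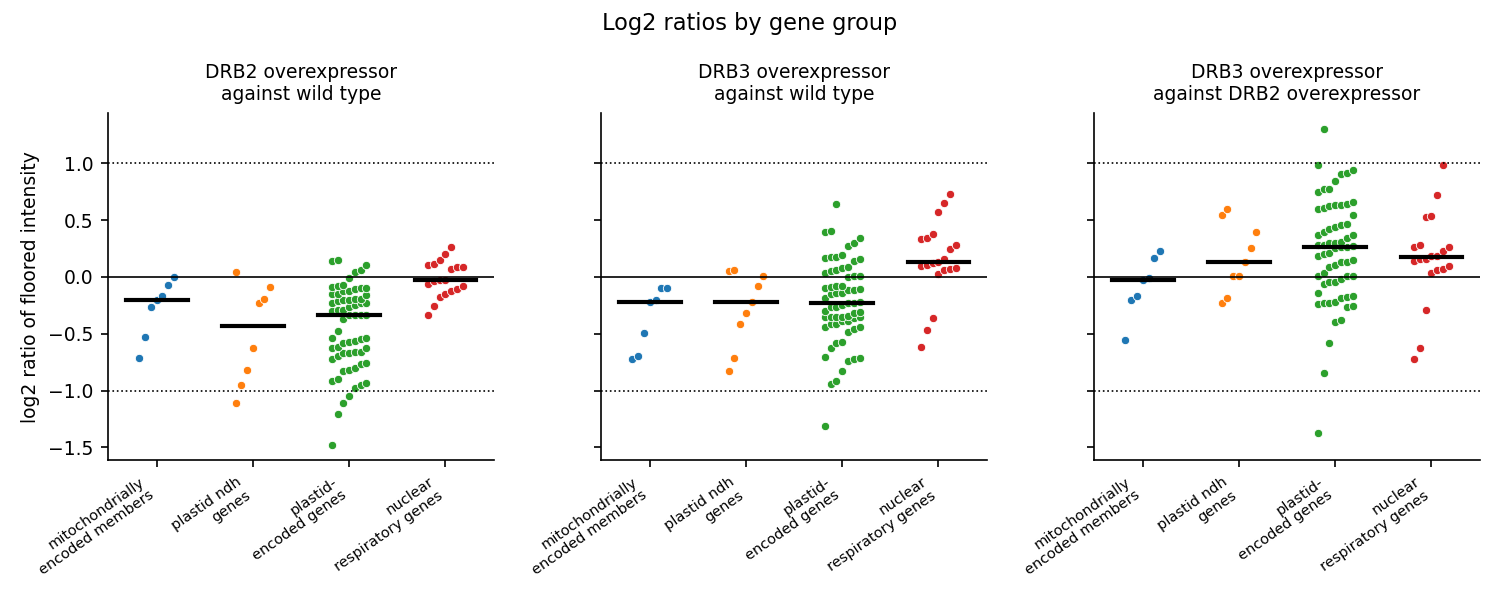
Log2 ratio of floored intensity (y axis) for genes above the floor on either array, 1 point per gene, in the 3 comparisons; bars are medians and dotted lines mark 2-fold. The medians of the mitochondrial genes, -0.20 and -0.22 against wild type, lie below 0 as those of the plastid genes do, while that of the nuclear respiratory genes is 0.13 in DRB3-OX.

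A list of nuclear genes that respond to mitochondrial stress had 4 named members, of which 2 were at least 2-fold higher in DRB3-OX, where 1.44% of all genes were. AT2G41730 read 188 in wild type, 215 in DRB2-OX and 581 in DRB3-OX, 3.08-fold above wild type. Its probe set may also read related transcripts. AT2G21640 read 165, 220 and 448, 2.73-fold above wild type. The other members, AT5G09570 and AT1G05060, had log2 ratios of -0.33 and -0.01 in DRB3-OX, so the list had no common direction.

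Of 14 genes found under mitochondrial RNA synthesis, splicing and editing, 4 were above the floor on either array in DRB3-OX against wild type and 5 in DRB2-OX, none past 2-fold. AT5G46920 read 225, 335 and 352, log2 ratios of 0.57 and 0.65. The editing factor gene MEF8S read 153, 127 and 181. OTP81 and OTP84, which the symbol pattern took, act on plastid RNA, and read 141, 81.4 and 133, and 109, 99.3 and 126.

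Genes with the most similar pattern were found by the distance between log2 floored intensities centred over the 3 arrays. The nearest to nad4 among 6778 genes above the floor on all arrays were AT1G69730 and AT1G34340 (distances of 0.010 and 0.014), with 57 genes within 0.1. To cox1 they were AT2G34357 and AT1G72700, to ccb382 AT5G57150 and AT5G58510, and to ccb452 AT5G53900 and AT1G25550. To nad1 they were AT1G60230 and PMEAMT, to nad9 AT1G25260 and AT5G10190, and to orfX AT2G30620 and AT5G36230, with these last 3 members floored in DRB3-OX. Over 3 arrays many genes come this close, as 385 lay within 0.1 of cox1 and 557 of orfX. The median pattern of the 7 genes was set against 64 organelle-encoded genes that are not members. All 64 were plastid genes, because the 9 other mitochondrial genes stayed under the floor and could not enter. Nearest lay atpB, matK and psbJ, at 0.026, 0.055 and 0.066.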

How the data were processed

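RNA was labelled as biotinylated cRNA from 10 ug of total RNA, per the labels' protocols. The values the authors deposited are linear MAS5 intensities, 1 per probe set and array, per the submitters' processing notes, which name neither a version nor a target. Trimmed by 2% at each end, the array means were all 500.05, so values were used as deposited. Of 22810 probe sets, 64 were controls and 13513 had 1 named gene. Where several probe sets read 1 gene, the one with the highest mean was kept, leaving 13356 genes. The floor was percentile 40 of all probe sets other than controls, averaged over the arrays. Mitochondrial genes were matched to RefSeq (assembly TAIR10.1) by symbol or synonym, and no coordinates or sequences are given.

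The members and lists were chosen with earlier results of these data known. Named were all members, all other mitochondrial genes, up to 4 genes of each nuclear list with the largest ratios or those past 2-fold, and the genes nearest in pattern. The steps were tested on simulated data. The alternatives tried were a floor at percentile 20 or 60, no floor but a pseudocount of 16, centring, quantile normalization, loess (span 0.3), averaging the probe sets of a gene, and thresholds of 1.5-fold or 3-fold. The tools were numpy 2.4.6, matplotlib 3.10.9, scipy 1.17.1, pandas 2.3.3 and statsmodels 0.14.6 under Python 3.11.15.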

Additional observations from a re-analysis of the deposited data

How the results depend on the processing

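The median log2 ratio of the mitochondrial genes against wild type stayed below 0 under all 7 alternatives to the floor, scaling and probe set rule. It ranged from -0.27 to -0.19 in DRB2-OX and from -0.49 to -0.21 in DRB3-OX. In DRB3-OX its sign is partly fixed, as the places of nad1, nad9 and orfX below 0 follow from how the members were chosen. With the floor at percentile 60 the medians rest on 3 members, which leaves out nad1, nad9 and orfX. With the probe sets of a gene averaged they rest on 6, as nad1 fell under the floor. In DRB3-OX the median was -0.49 with the floor at percentile 20 and -0.48 with a pseudocount of 16; nad1 (-1.07) and nad9 (-1.18) were past 2-fold at the lower floor and not with the pseudocount (-0.94 and -0.99). Between the overexpressors it was -0.40 and -0.34 under these settings, with nad9 past 2-fold at the lower floor (-1.19), and 0.16 with the floor at percentile 60, which leaves 3 members.

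Over all genes, the counts at least 2-fold apart in DRB2-OX and DRB3-OX against wild type and between the overexpressors were 592, 769 and 568 with the floor at percentile 20, 53, 205 and 62 at percentile 60, and 941, 1020 and 871 with a pseudocount. These settings differ in the weak signals they admit or drop, and the cause of the shifts was not tested. With the floor at percentile 20, 430 genes were higher and 162 lower in DRB2-OX than in wild type. There 369 were higher and 400 lower in DRB3-OX than in wild type, and 164 higher and 404 lower in DRB3-OX than in DRB2-OX. With the floor kept, the counts of genes apart in the 3 comparisons were 843, 1457 and 899 at 1.5-fold and 13, 78 and 21 at 3-fold. Of 130 single values of the members under the alternatives, 116 were within 0.1 log2 units of those reported. The 130 leave out members that fell under the floor on both arrays of a comparison. These were nad1, nad9, ccb452 and orfX at percentile 60, and nad1 with its probe sets averaged. Between the overexpressors orfX was also lost after centring or quantile normalization. No paired analysis was possible because each group has 1 array and carries no replicate number. Signal near the floor limits nad1, nad9 and orfX.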
